A study of Homo sapiens with 9 samples.

Results

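The proteasome genes were chosen by their symbols: all genes named PSM followed by a letter from A to G and a digit, together with *POMP*, *ADRM1* and *SEM1*, whose normalized counts averaged 1 or more over all libraries. This gave 53 genes out of 17530 with such a mean, and no matching symbol fell below it. RNA-seq was performed on clones of LNCaP, a human prostate cancer cell line. In the *EPCART*-del clones, named del-4 and del-56, CRISPR-Cas9 had removed the promoter and the 1st and 2nd exon of the lncRNA *EPCART*. These and 1 wild-type (WT) LNCaP clone were each grown for 48 hours in the same serum-containing medium and sampled as 3 biological replicates. Each group was 1 clone, so that an effect of the deletion and a difference that a clone carried for another reason cannot be told apart, and the WT libraries served both comparisons.

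The 8 LNCaP markers, among them *KLK3*, *KLK2* and *TMPRSS2*, were at 5012 normalized counts or more in every library, and 6 of 10 markers of basal, immune, stromal and endothelial cells had a mean under 10. The others were *CD68*, *COL1A1*, *PDGFRB* and *VWF*, with means from 55.1 to 1167. Of the LNCaP markers, 3 rose and 5 fell in del-4 against WT, and 2 rose and 3 fell in del-56. Of the 7 other markers that could be tested, *COL1A1* rose in both clones (0.33 and 0.34) and *VWF* fell in del-4 (-0.97); their part in the results was not tested. Between 91074556 and 118877134 reads lay on genes per library, lowest in del-56 replicate 3. The p-values measure the spread between cultures of 1 clone each, and in such bulk RNA fewer cells of a type and less RNA per cell cannot be told apart.

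The 26S proteasome degrades proteins that carry ubiquitin chains. Its 20S core is a stack of 4 rings: outer rings of alpha subunits, which form the gate, and inner rings of beta subunits, of which *PSMB5*, *PSMB6* and *PSMB7* encode the proteolytic sites. The 19S regulator caps the core with a ring of ATPases that unfold the substrate and with subunits that bind or remove ubiquitin. Dedicated chaperones assemble both particles, and interferon can replace the catalytic subunits with the immunoproteasome subunits *PSMB8*, *PSMB9* and *PSMB10*. When proteasome activity falls, the transcription factor NFE2L1 raises the genes of the whole complex together. The 53 genes comprised 8 alpha subunits, 4 structural and 3 constitutive catalytic beta subunits, the 3 immunoproteasome subunits, the thymus subunit *PSMB11*, 6 ATPases and 13 non-ATPase subunits of the 19S particle, 8 assembly chaperones, 5 genes of regulators, and *PSMC3IP* and *PSME3IP1*, which match by name but encode no subunit.

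The results below turn on 4 genes, whose start regions (RefSeq, GRCh38.p14, from 250 bases before to 50 after the annotated start) are shown because they carry motifs of the factors that are known to act on this family. Capitals mark the letters TGACNNNGC, the core of the antioxidant response element bound by NFE2L1, and GAAA followed by any 2 bases and GAAA, the core of the interferon-stimulated response element, on either strand; no letters of these motifs overlapped each other.
*PSMD5*, chr9:120842873-120843172, minus strand: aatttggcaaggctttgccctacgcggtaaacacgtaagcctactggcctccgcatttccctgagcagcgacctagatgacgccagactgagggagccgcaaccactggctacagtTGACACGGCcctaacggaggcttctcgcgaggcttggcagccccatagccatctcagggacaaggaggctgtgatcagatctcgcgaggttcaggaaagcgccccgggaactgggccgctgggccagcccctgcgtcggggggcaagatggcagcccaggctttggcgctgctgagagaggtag
*PSME1*, chr14:24135944-24136243, plus strand: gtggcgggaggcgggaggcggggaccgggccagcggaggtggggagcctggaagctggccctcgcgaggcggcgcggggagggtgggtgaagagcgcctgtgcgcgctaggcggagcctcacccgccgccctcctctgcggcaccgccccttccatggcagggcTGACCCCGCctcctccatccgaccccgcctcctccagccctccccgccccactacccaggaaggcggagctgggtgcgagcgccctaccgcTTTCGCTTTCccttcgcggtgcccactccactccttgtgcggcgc
*PSME2*, chr14:24146561-24146860, minus strand: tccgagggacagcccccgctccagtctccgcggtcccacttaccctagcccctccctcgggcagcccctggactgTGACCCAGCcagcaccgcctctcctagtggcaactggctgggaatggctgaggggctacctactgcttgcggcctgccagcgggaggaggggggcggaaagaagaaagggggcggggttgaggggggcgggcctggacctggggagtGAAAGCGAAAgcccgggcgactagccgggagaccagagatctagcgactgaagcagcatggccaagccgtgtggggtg
*PSMB10*, chr16:67936801-67937100, minus strand: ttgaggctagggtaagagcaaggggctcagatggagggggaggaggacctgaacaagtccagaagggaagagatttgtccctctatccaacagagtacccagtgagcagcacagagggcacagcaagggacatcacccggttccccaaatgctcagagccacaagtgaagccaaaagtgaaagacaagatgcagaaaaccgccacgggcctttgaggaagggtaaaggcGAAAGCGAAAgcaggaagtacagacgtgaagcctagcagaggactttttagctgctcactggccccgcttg
Start regions were given for 47 of the 53 genes. TGACNNNGC stood in 17 of these 47 (36.2%) and in 16.1% of the 27305 genes with a start region, and the interferon motif in 7 of 47 (14.9%) and in 4.38% of all. The 7 were *PSMA4*, *PSMB4*, *PSMB8*, *PSMB10*, *PSMG4*, *PSME1* and *PSME2*, and *PSMA4*, *PSME1* and *PSME2* held both motifs. A match describes the letters only and was not tested as a binding site.

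As a whole, the family stayed close to WT, and its parts moved in different directions. In del-4, 16 of 53 genes were higher and 9 lower than in WT at an adjusted p under 0.05 (limma, Benjamini-Hochberg over all genes tested), where 20.5% and 20.2% of 17401 tested genes were higher and lower. In del-56, 12 of 52 were higher and 11 lower, against 19.2% and 20.5% of 17481 genes. These shares over all genes are also the background for the counts of role groups and subsets below. The median log2 fold change (log2FC) over the genes was 0.014 for del-4 and 0.015 for del-56, beside -0.0028 and -0.0011 over all genes tested. Rescaling each library to the same total changed the split in del-4 to 7 higher and 15 lower, and in del-56 to 6 higher and 13 lower. Apart from *PSMD5* and *PSMB8* in del-56, no called gene of the family was changed by more than 2-fold in either clone.
Coordinates of genes here and below are those of GENCODE on GRCh38.

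**Figure D1:**
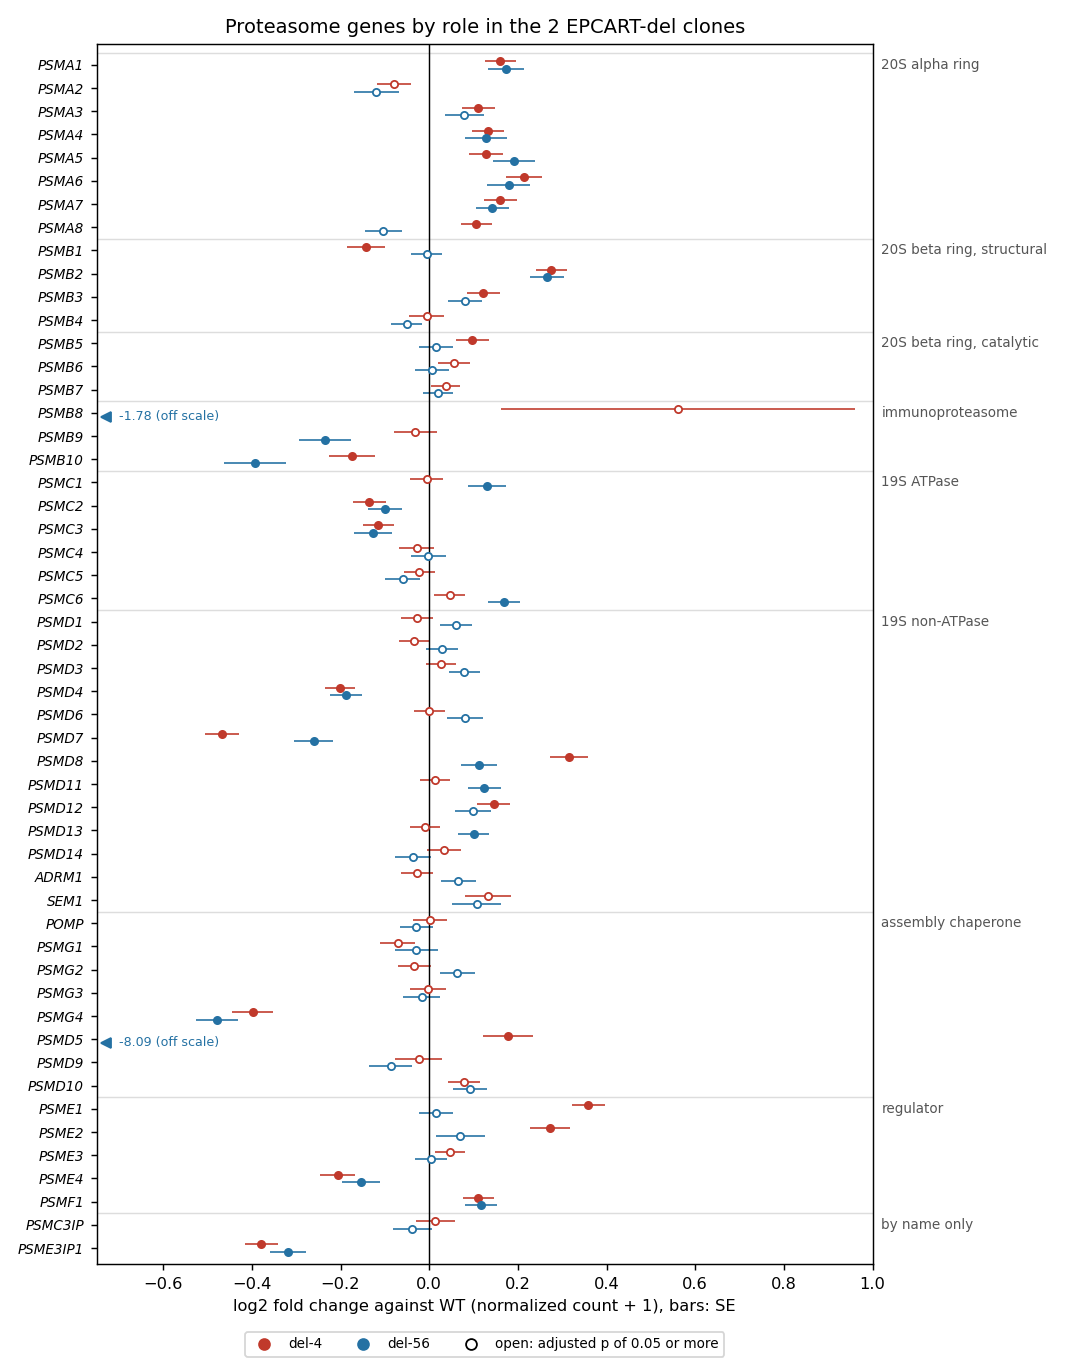
The log2FC against WT of each proteasome gene but *PSMB11*, with its SE, by role; red is del-4, blue is del-56, filled points have an adjusted p under 0.05, and values off the scale are written out. Most alpha subunits lie right of 0 in both clones, while *PSMD5* in del-56 lies at -8.09.

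The largest difference in the family was in *PSMD5*, which encodes a chaperone that binds the base of the 19S particle during its assembly. *PSMD5* (ENSG00000095261.14, chr9:120815496-120842951, minus strand) had 3351, 2866 and 3298 normalized counts in the del-4 libraries and 2787, 2771 and 2832 in WT, but 13.4, 6.02 and 9.70 in del-56. All del-56 libraries were thus far below every other library, with a mean of 0.347% of the WT mean. The log2FC in del-56 was -8.09 (SE 0.226, adjusted p = 3.12e-13). Of 10380 genes with a WT mean of at least 1000, only 6, *PSMD5* included, had a log2FC this low or lower in del-56. In del-4 it was 0.18 (SE 0.057, adjusted p = 0.0182), a call that was lost when del-4 replicate 1 or 3 or WT replicate 2 or 3 was left out, in 1 fit of all 9 libraries (adjusted p = 0.464) and with the same total (log2FC 0.11).

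No gene shown around *PSMD5* had a loss of this size. Of the neighbours, *CNTRL*, 231709 bases away, and *MEGF9*, 101026 bases away, were lower in del-56, with a log2FC of -0.53 (adjusted p = 0.00181) and -0.14 (adjusted p = 0.0429). On one side, *B3GALT9*, 13709 bases away, had 2283 ± 46.4 (SD, n = 3) normalized counts in del-56 against 2254 ± 149 (SD, n = 3) in WT, with a log2FC of 0.020 (adjusted p = 0.821). *FBXW2*, 22080 bases away, had 9384 ± 339.9 (SD, n = 3) in del-56 against 8621 ± 72.0 (SD, n = 3) in WT. On the other side, *PHF19*, 12700 bases away, had 1344 ± 116 (SD, n = 3) in del-56 against 1048 ± 16.8 (SD, n = 3) in WT, a log2FC of 0.36 (adjusted p = 0.00161). Each neighbour with a WT mean of at least 100 thus had at least 363.5 counts on average in del-56, as the plot of the locus shows. Over the 10 genes tested on each side of *PSMD5*, the median log2FC was 0.0068 in del-56 and -0.033 in del-4.

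**Figure D2:**
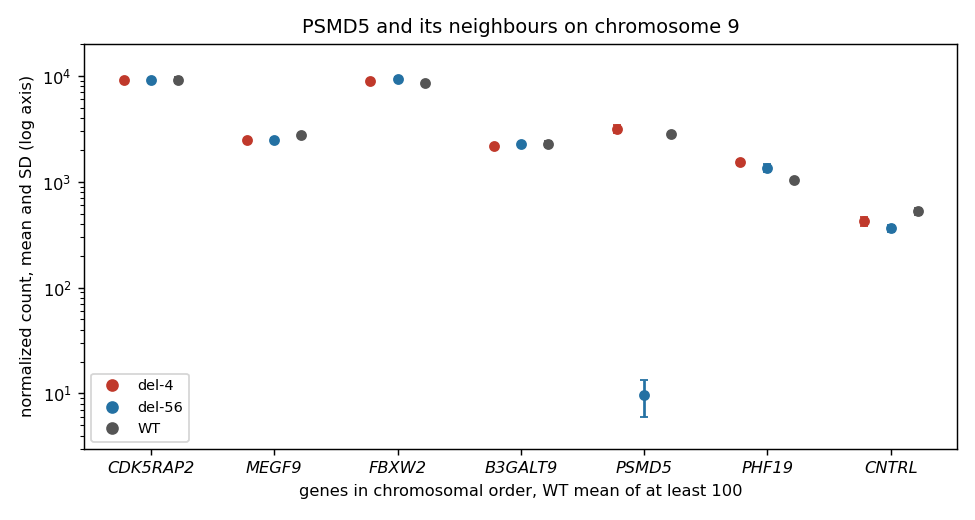
Normalized counts (log axis) of *PSMD5* and its neighbours on chromosome 9 in chromosomal order, as mean and SD of 3 libraries per clone; red is del-4, blue is del-56 and grey is WT. *PSMD5* in del-56, at 9.69, is the single point near the bottom of the scale.

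Among the other assembly chaperones, the *PSMG4* count was the one called, and how much of it comes from an overlapping gene was not tested. Of the 8 chaperones, *PSMD5* included, 1 was higher and 1 lower in del-4, and none higher and 2 lower in del-56. *POMP*, the maturation factor of the core, and *PSMG1*, *PSMG2* and *PSMG3*, of the chaperones for the alpha ring, were not called in either clone, nor were *PSMD9* and *PSMD10*, which act with *PSMD5* on the 19S base. Their log2FC lay between -0.087 and 0.092 in both clones. *PSMG4* (ENSG00000180822.12, chr6:3231403-3303373, plus strand), a partner of *PSMG3*, had 4317, 4123 and 4148 normalized counts in del-4, 4092, 3928 and 3895 in del-56, against 5272, 5854 and 5479 in WT. All *EPCART*-del libraries were below all WT libraries, with a log2FC of -0.40 (SE 0.045, adjusted p = 1.43e-06) for del-4 and -0.48 (SE 0.047, adjusted p = 9.11e-07) for del-56. However, 34412 bases of the *PSMG4* span are shared with *SLC22A23* on the opposite strand, which was lower by a similar amount, with a log2FC of -0.53 for del-4 and -0.61 for del-56 (adjusted p = 2.39e-08 and 1.77e-07). After subtraction of the *SLC22A23* reads, 797, 758 and 704 reads were left of the *PSMG4* count in del-4, 618, 693 and 697 in del-56, against 396, 766 and 592 in WT. The shared bases are 18.3% of the *SLC22A23* span, so its reads need not all lie within the *PSMG4* span. The subtraction can therefore remove too many reads, and no direction was read from what was left. How many reads the 2 genes share was not tested.

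Shared spans were also compared over the whole table. Among genes nested in the span of another gene, with a mean of at least 20 reads, the outer gene had at least as many reads as the inner gene in all 9 libraries in 618 of 628 pairs on the same strand and in 389 of 393 pairs on opposite strands. A count can therefore hold reads of another gene that shares the span, on either strand. Values per kb of exon can likewise hold reads from outside the exons of the gene. The share of such reads was not tested. The spans of 21 of the 53 proteasome genes overlapped another gene of the table, and 32 did not. Among the latter, 10 of 32 were higher and 5 lower in del-4, and 8 of 31 higher and 5 lower in del-56.

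In the core, genes of the alpha ring were more often higher than lower. In del-4, 7 of 8 alpha subunits were higher and none lower, and in del-56, 5 of 8 were higher and none lower, with group medians of 0.13 and 0.14. *PSMA6* had the largest rise of the ring in del-4 and *PSMA5* in del-56 (0.19, adjusted p = 0.00407). The *PSMA6* (ENSG00000100902.11, chr14:35278633-35317493, plus strand) libraries had 24441, 23619.8 and 23669.7 normalized counts in del-4, 21912, 23821 and 24411 in del-56, against 22093, 19939 and 19913 in WT. Del-4 lay above all WT libraries, whereas del-56 replicate 1 lay below WT replicate 1. Its log2FC was 0.21 (SE 0.041, adjusted p = 0.000375) for del-4 and 0.18 (SE 0.048, adjusted p = 0.00744) for del-56, where the call was lost without del-56 replicate 3 (adjusted p = 0.0587) or WT replicate 2 or 3.

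For *PSMA1* (ENSG00000129084.18, chr11:14504874-14643635, minus strand), the counts were 17716, 17043 and 17518 in del-4, 16653, 17949 and 18201 in del-56, against 16050.5, 15362 and 15369 in WT. No *EPCART*-del library overlapped with WT, and the log2FC was 0.16 (SE 0.035, adjusted p = 0.00117) for del-4 and 0.17 (SE 0.041, adjusted p = 0.00284) for del-56. *PSMA4*, *PSMA5* and *PSMA7* were also called higher in both clones, with log2FC from 0.13 to 0.19, and *PSMA3* in del-4 (0.11, adjusted p = 0.024; in del-56 0.079, adjusted p = 0.176). *PSMA2* was called in neither clone, with a log2FC of -0.079 for del-4 and -0.12 for del-56. These shifts were small, near 1.1-fold, and depended on the scaling: 7 alpha subunits in del-4 and 6 in del-56 kept a positive log2FC under every scaling, but with libraries at the same total 3 were called higher and 1 lower in del-4, and 4 higher and 2 lower in del-56.

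*PSMA8* (ENSG00000154611.15, chr18:26133852-26193355, plus strand), the alpha subunit of the testis proteasome, had 14580.4, 14340.2 and 13969 normalized counts in del-4, 11813, 12171 and 13115 in del-56, against 13549, 13302 and 12982 in WT. Del-4 was above all other libraries, and del-56 overlapped with WT. Its log2FC was 0.11 (SE 0.035, adjusted p = 0.0207) in del-4, lost without del-4 replicate 1 or WT replicate 2 or 3, and -0.10 in del-56 (SE 0.042, adjusted p = 0.062). The difference between the clones was 0.21 (SE 0.041, adjusted p = 0.00133). How many of these reads came from other sequence within the *PSMA8* span was not tested.

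Among the structural beta subunits, *PSMB2* (ENSG00000126067.12, chr1:35599541-35641526, minus strand) rose in both clones. It had 16489.7, 16945 and 16551 normalized counts in del-4, 15999.8, 16806 and 16828 in del-56, against 14126, 13394 and 13779 in WT. The *EPCART*-del libraries were all above WT, with a log2FC of 0.28 (SE 0.035, adjusted p = 4.59e-06) for del-4 and 0.27 (SE 0.038, adjusted p = 3.81e-05) for del-56. In del-4, *PSMB3* rose by 0.12 on the log2 scale (adjusted p = 0.0124) and *PSMB1* fell by 0.14 (adjusted p = 0.0113), and neither was called in del-56.

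The constitutive catalytic subunits were among the most abundant of the family per length, at 8980 to 14886 normalized counts per kb of exon over all libraries, and stayed close to WT. *PSMB5* (ENSG00000100804.19, chr14:23016543-23035230, minus strand), the chymotrypsin-like site, had 24543, 23208 and 24325 normalized counts in del-4, 22582, 22520.2 and 22965 in del-56, against 23410.4, 22105 and 21861 in WT. *PSMB6* (ENSG00000142507.10, chr17:4796144-4798502, plus strand), the caspase-like site, had 13679, 13141 and 13112 in del-4, 12737, 12436 and 13431 in del-56, against 13036, 12856 and 12518 in WT. *PSMB7* (ENSG00000136930.13, chr9:124353465-124415444, minus strand), the trypsin-like site, had 21243, 20639.8 and 21088 in del-4, 20527, 20672 and 21018 in del-56, against 20256, 20762 and 20346 in WT. The ranges of each clone overlapped with those of WT for *PSMB5* and *PSMB7* and in del-56 also for *PSMB6*, while del-4 lay above WT for *PSMB6*. Only *PSMB5* in del-4 was called (log2FC 0.097, SE 0.037, adjusted p = 0.0456), and this call was lost without del-4 replicate 1 or 3 or WT replicate 2 or 3 and with the same total (adjusted p = 0.546). For the others, the log2FC lay between 0.0067 and 0.056, with SE from 0.033 to 0.039.

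**Figure D3:**
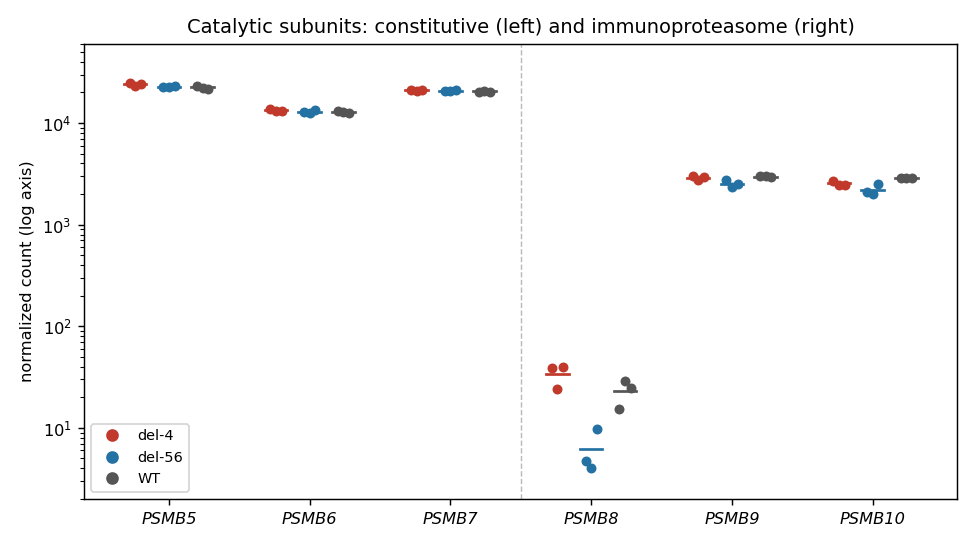
Normalized counts (log axis) of the constitutive catalytic subunits (left of the dashed line) and the immunoproteasome subunits (right) in each library; points are libraries and short lines are means, with red for del-4, blue for del-56 and grey for WT. *PSMB8* lies below 41 in all libraries and lowest in del-56, while *PSMB5*, *PSMB6* and *PSMB7* lie far above all of the immunoproteasome subunits.

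The immunoproteasome subunits were low, and the counts of all 3 were lower in del-56 than in either other clone, although that of *PSMB9* cannot be told apart from another gene. *PSMB8* (ENSG00000204264.12, chr6:32840717-32844679, minus strand), which replaces *PSMB5*, had 38.4, 23.9 and 40.2 normalized counts in del-4, 4.77, 4.02 and 9.70 in del-56, against 15.5, 29.0 and 24.5 in WT. Its mean per kb of exon was 0.0455% of that of *PSMB5* in WT, 0.0633% for del-4 and 0.0121% for del-56. All del-56 libraries lay below all others, and del-4 overlapped with WT. The log2FC was -1.78 (SE 0.542, adjusted p = 0.0154) in del-56 and 0.56 (SE 0.399, adjusted p = 0.288) in del-4, and the difference between the clones was 2.34 (SE 0.509, adjusted p = 0.00292). The *PSMB8* span shares 544 bases with that of *PSMB9*. These values rest on 4 to 40 reads per library, and on fewer fragments where both mates of a read pair were counted. The call in del-56 was lost without WT replicate 2 (adjusted p = 0.0783) or WT replicate 3 (adjusted p = 0.0612).

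*PSMB9* (ENSG00000240065.8, chr6:32844136-32859851, plus strand), which replaces *PSMB6*, had 2994, 2772 and 2961 normalized counts in del-4, 2740.3, 2343 and 2509 in del-56, against 3008, 2993 and 2913 in WT. The count of *PSMB9* was little above that of *TAP1*, the peptide transporter subunit that lies on the opposite strand within the *PSMB9* span. After subtraction of the *TAP1* reads, 74, 46 and 56 reads were left in del-4, 45, 32 and 26 in del-56, against 36, 67 and 56 in WT, which were 1.16% to 2.37% of the *PSMB9* reads. The groups overlapped in these remaining reads. The log2FC of the *PSMB9* count, -0.23 in del-56 (SE 0.058, adjusted p = 0.00446) and -0.031 in del-4 (SE 0.049, adjusted p = 0.657), was close to that of *TAP1* (-0.23 and -0.035), and the 2 genes cannot be told apart in these counts.

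*PSMB10* (ENSG00000205220.12, chr16:67934506-67936864, minus strand), which replaces *PSMB7*, fell in both clones. It had 2719.8, 2465 and 2475 normalized counts in del-4, 2119, 1993 and 2487 in del-56, against 2884, 2853 and 2892 in WT. All *EPCART*-del libraries lay below WT. The log2FC was -0.39 (SE 0.069, adjusted p = 0.000275) in del-56 and -0.17 (SE 0.052, adjusted p = 0.0123) in del-4, where the call was lost without del-4 replicate 2 or 3 or WT replicate 3. Its mean per kb of exon was 15.5% of that of *PSMB7* in WT, 13.4% for del-4 and 11.7% for del-56. The 10 genes tested on each side of *PSMB10* had a median log2FC of -0.30 in del-56 and -0.33 in del-4, and a same-strand readthrough gene shares 64.1% of its span. *PSMB11*, the thymus counterpart of *PSMB5*, averaged 1.95 normalized counts in del-4, 0.808 in del-56, with 0.644 in WT, and passed the filter on low counts in the fits with del-4 only.

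The ATPase ring of the 19S particle showed no common direction. Of 6 ATPases, none was higher and 2 were lower in del-4, and 2 were higher and 2 lower in del-56. *PSMC3* (ENSG00000165916.9, chr11:47418769-47426473, minus strand) had 20089, 19399.8 and 20023 normalized counts in del-4, 18427, 20282 and 20354 in del-56, against 22298, 21239.7 and 20913 in WT, with no overlap between the *EPCART*-del clones and WT. Its log2FC was -0.11 (SE 0.036, adjusted p = 0.0156) in del-4, lost without del-4 replicate 2 or WT replicate 1, and -0.13 (SE 0.044, adjusted p = 0.0294) in del-56, lost without del-56 replicate 1 or WT replicate 1 or 2. *PSMC2* (ENSG00000161057.13, chr7:103328570-103370346, plus strand) had 14980.0, 14244 and 15018 in del-4, 14635, 15463 and 15224 in del-56, against 16689, 16297 and 15608 in WT, also without overlap. Its log2FC was -0.14 for del-4 (SE 0.037, adjusted p = 0.00707), and the value of -0.10 in del-56 was just past the threshold, a call that was lost when any library but WT replicate 3 was left out. The *PSMC2* span shares 38.9% of its bases with *DNAJC2*, 42.2% with *SLC26A5* and 7.78% with *PMPCB*. These had a log2FC of -0.27, -0.20 and -0.18 in del-4, and of -0.14, -0.042 and -0.19 in del-56. How many of the *PSMC2* reads came from these genes was not tested. *PSMC6* and *PSMC1* rose in del-56 by 0.17 and 0.13 on the log2 scale (adjusted p = 0.00146 and 0.0242), with log2FC of 0.046 and -0.0054 in del-4 (adjusted p = 0.319 and 0.928). The *PSMC1* span shares 40.0% of its bases with *NRDE2* on the opposite strand. *NRDE2* had a log2FC of 0.15 in del-56 (adjusted p = 0.00436) and -0.019 in del-4 (adjusted p = 0.730). How many of the *PSMC1* reads came from *NRDE2* was not tested.

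Of the 13 non-ATPase subunits, 2 were higher and 2 lower in del-4, and 3 higher and 2 lower in del-56. *PSMD7* (ENSG00000103035.11, chr16:74296814-74306288, plus strand), the partner of the deubiquitinase *PSMD14* in the lid, had the largest fall. It had 11606, 11198 and 11816 normalized counts in del-4, 12577, 13757 and 13644 in del-56, against 16631, 15963 and 15282 in WT, so the groups did not overlap and del-4 was lowest. The log2FC was -0.47 (SE 0.039, adjusted p = 2.52e-08) for del-4 and -0.26 (SE 0.044, adjusted p = 0.000182) for del-56. *PSMD14* itself was not called, with a log2FC of 0.034 and -0.037.

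*PSMD4* (ENSG00000159352.16, chr1:151254709-151267479, plus strand), a ubiquitin receptor, had 19092, 18577 and 18899 normalized counts in del-4, 18584, 19645 and 18920.1 in del-56, against 22256, 21553 and 21269 in WT. Both clones were below WT in every library, with a log2FC of -0.20 (SE 0.034, adjusted p = 0.000107) for del-4 and -0.19 (SE 0.037, adjusted p = 0.000756) for del-56. *ADRM1*, another ubiquitin receptor, was not called in either clone, with a log2FC of -0.027 and 0.066.

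*PSMD8* (ENSG00000099341.12, chr19:38374563-38383850, plus strand), a lid subunit, changed the other way. Its counts were 38059, 34592 and 37566 in del-4, 31777, 31499 and 32393 in del-56, against 29581, 31005 and 27996 in WT. Both clones were above all WT libraries, del-4 more so, with a log2FC of 0.32 (SE 0.044, adjusted p = 1.34e-05) for del-4 and 0.11 (SE 0.041, adjusted p = 0.0384) for del-56. In del-56 the call was lost without del-56 replicate 2 or 3 or WT replicate 1 or 3, with the same total and with the replicate block. *PSMD12* was called in del-4 (0.15, adjusted p = 0.00444) and *PSMD11* and *PSMD13* in del-56 (0.12 and 0.10, adjusted p = 0.0156 and 0.0322), and of these *PSMD11* and *PSMD13* also differed between the clones.

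Among the regulators, *PSME1* and *PSME2*, which encode the subunits of the interferon-inducible PA28 activator, rose in del-4. *PSME1* (ENSG00000092010.15, chr14:24136163-24138967, plus strand) had 9774, 9285 and 9986 normalized counts in del-4, 7432, 7661 and 7786 in del-56, against 7591, 7549 and 7495 in WT. Del-4 stood above all other libraries, whereas del-56 and WT overlapped. The log2FC was 0.36 (SE 0.038, adjusted p = 5.28e-07) for del-4 and 0.015 (SE 0.038, adjusted p = 0.789) for del-56, and the clones differed by 0.34 (SE 0.040, adjusted p = 6.51e-06). *PSME2* (ENSG00000100911.16, chr14:24143362-24147570, minus strand), 4395 bases from *PSME1* and on the other strand, had 8757, 8784 and 9359 in del-4, 7153, 8005 and 8259 in del-56, against 7929, 7294 and 7065 in WT. Again only del-4 stood apart, with a log2FC of 0.27 (SE 0.045, adjusted p = 8.50e-05) against 0.070 in del-56 (SE 0.055, adjusted p = 0.342). The genes around the pair differed among themselves. *EMC9*, which lies between them, had a log2FC of 0.12 in del-4 (adjusted p = 0.0598) and rose in del-56 (0.19, adjusted p = 0.0151). *DCAF11*, 10921 bases before *PSME1*, had a log2FC of -0.0061 in del-4 (adjusted p = 0.924), whereas *PCK2*, 25565 bases before it, rose in del-4 (0.17, adjusted p = 0.00552) and fell in del-56 (-0.37, adjusted p = 4.26e-06).

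**Figure D4:**
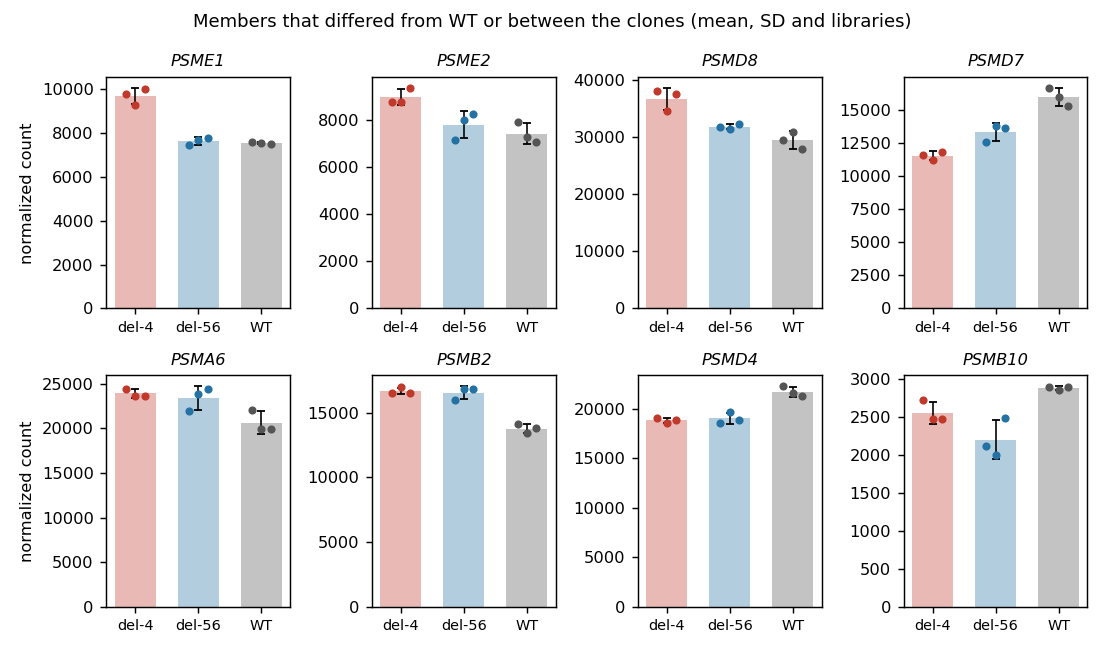
Normalized counts of 8 proteasome genes in each clone; bars are means of 3 libraries from 0, error bars are SD and points are libraries, with red for del-4, blue for del-56 and grey for WT. *PSME1* and *PSME2* stand out in del-4 only, *PSMD8* and *PSMD7* differ between del-4 and del-56, and *PSMA6*, *PSMB2* and *PSMD4* are alike in both clones on one side of WT.

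*PSME4* (ENSG00000068878.15, chr2:53864069-53970993, minus strand), which encodes the PA200 activator, had 7661, 8118 and 7604 normalized counts in del-4, 8507, 7791 and 7973 in del-56, against 9242, 8692 and 9047 in WT. The *EPCART*-del libraries were all below WT, with a log2FC of -0.21 (SE 0.040, adjusted p = 0.000376) for del-4 and -0.15 (SE 0.043, adjusted p = 0.00926) for del-56, the latter lost without del-56 replicate 2 (adjusted p = 0.0532). *PSMF1* (ENSG00000125818.18, chr20:1113240-1189415, plus strand), an inhibitor of the core, had 12447, 12614 and 13069.8 in del-4, 12928, 12714 and 12661 in del-56, against 11602, 11822 and 11899 in WT. Here both clones were above WT, with a log2FC of 0.11 (SE 0.035, adjusted p = 0.0175) and 0.12 (SE 0.035, adjusted p = 0.0144), but with the same total neither call held (adjusted p = 0.407 and 0.0701), nor in del-4 without del-4 replicate 3 (adjusted p = 0.101). *PSME3* was not called, with a log2FC of 0.047 and 0.0039. *PSME3IP1* (ENSG00000172775.17, chr16:57152466-57186116, minus strand), which encodes a protein that binds the PSME3 product, had 5237, 5264 and 5326 in del-4, 5364, 5637 and 5503 in del-56, against 6777, 6982 and 6814 in WT, with a log2FC of -0.38 and -0.32 (adjusted p = 2.71e-07 and 1.04e-05).

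Several of the larger changes stood beside changes of the surrounding genes in the same direction. *PSMD7*, *PSMB10* and *PSME3IP1* lie on chromosome 16, where the median log2FC over the other genes tested was -0.34 for del-4 and -0.31 for del-56. *PSMB2* and *PSMA5* lie on chromosome 1 before position 120000000, where this median was 0.22 and 0.23. Among the 20 genes tested nearest to *PSMD7*, 10 on each side, the median was -0.41 for del-4 and -0.19 for del-56, and next to *PSMB2* it was 0.20 and 0.32. Close to *PSME4*, on chromosome 2, the same median was -0.24 and -0.34. Next to *PSMD4* it was -0.15 for del-4 and -0.12 for del-56, and next to *PSMF1* 0.19 and 0.21.

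In contrast, the medians next to *PSME1* (0.030 and -0.049), *PSMD8* (0.0073 and -0.030) and *PSMA6* (-0.010 and 0.0018) were near 0. Over the 50 genes of the family with a mean of at least 100, without *PSMD5*, the log2FC of a gene and the median of its 20 flanking genes had a Pearson's r of 0.64 for del-4 and 0.54 for del-56 (Spearman's rho 0.51 and 0.50), given as a description, since neighbouring family members share flanking genes and all genes share the libraries. The share of each change that goes with its region was not tested.

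**Figure D5:**
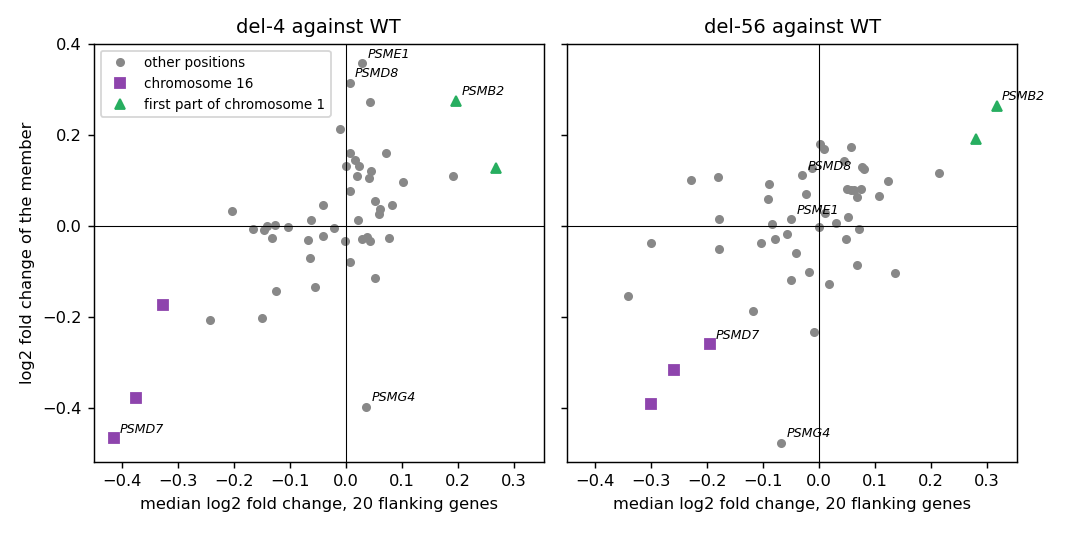
The log2FC of 50 proteasome genes (y axis) against the median log2FC of the 20 genes tested nearest to each (x axis), in del-4 (left) and del-56 (right); purple squares are genes on chromosome 16, green triangles genes on the first part of chromosome 1, and grey points the others. *PSMD7* and *PSMB2* lie near the values of their flanking genes, while *PSMG4* in both clones and *PSME1* and *PSMD8* in del-4 lie apart from theirs.

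Between the clones, 8 of the 53 genes were called with a positive and 6 with a negative difference of del-4 minus del-56, where 10.9% and 9% of 17447 genes tested were higher and lower. Higher in del-4 were *PSMD5*, *PSMB8*, *PSME1*, *PSMB10* (0.22, adjusted p = 0.0412), *PSMA8*, *PSMD8* (0.20, adjusted p = 0.0013), *PSMB9* and *PSME2* (0.20, adjusted p = 0.00747). Lower in del-4 were *PSMD7* (-0.21, adjusted p = 0.0015), *PSMB1*, *PSMC1*, *PSMC6*, *PSMD11* and *PSMD13*, the last 5 by 0.11 to 0.14 on the log2 scale. With single libraries left out, 1 to 8 genes were lower. Of the 14 calls, 8 were lost in at least 1 of these fits. The highest adjusted p came without del-56 replicate 2 for *PSMB9* (0.135), *PSMB10* (0.203), *PSMC1* (0.111), *PSMC6* (0.0984), *PSMD11* (0.189) and *PSMD13* (0.151), without del-4 replicate 2 for *PSMB1* (0.137), and without del-4 replicate 3 for *PSME2* (0.0675). *PSMB9* and *PSMB10* were also lost with the same total (adjusted p = 0.0634 and 0.0823).

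Genes that act with the proteasome were compared in the same fits. Beside each list below, the shares over all genes tested were 20.5% higher and 20.2% lower in del-4. In del-56 they were 19.2% higher and 20.5% lower. Of 9 genes, *NFE2L1*, its paralog *NFE2L2* and 7 that act on the path that activates NFE2L1, 4 were higher and none lower in del-4, and 4 higher and 2 lower in del-56. *NFE2L1* itself rose, with a mean of 25161 normalized counts in del-4 and 25097 in del-56 against 22494 in WT, a log2FC of 0.16 in both clones (adjusted p = 0.000591 and 0.00163). *DDI2*, the protease that cleaves it, rose by 0.25 and 0.28 and *VCP*, which draws it out of the endoplasmic reticulum, by 0.26 and 0.30 on the log2 scale. Of 18 proteasome-bound and shuttle factors, 3 were higher and 2 lower in del-4 and 6 higher and 3 lower in del-56. Among them *PITHD1* (0.44 and 0.48) and *IPO9* (0.27 and 0.25) rose and *UBQLN2* (-0.13 and -0.14) fell in both clones. Whether the changes of these list genes, *DDI2* and *PITHD1* included, go with those of the genes around them was not tested.

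Of the 6 ubiquitin and E1 genes, 4 were higher and 1 lower in del-4 and 2 higher and 2 lower in del-56. *UBB*, a polyubiquitin gene, rose by 0.28 and 0.21 on the log2 scale and *UBA1*, the main E1 enzyme, by 0.16 and 0.11. Of 12 antigen presentation genes, which act downstream of the immunoproteasome, 5 were higher and 2 lower in del-4, and 2 higher and 5 lower in del-56. Between the clones, 7 of the 12 were higher in del-4 and none lower, where 10.9% and 9% of all genes tested were higher and lower. Among the 7 were *HLA-B*, *HLA-C*, *B2M*, *TAP1*, *TAP2* and *TAPBP*, higher by 0.18 to 0.38 on the log2 scale. These genes, and *COL1A1*, *VWF* and the neighbours of *PSMD5* and *PSME1*, were named after their values were seen. *HLA-B* rose in del-4 (0.44, adjusted p = 5.40e-05) and had a log2FC of 0.062 in del-56 (adjusted p = 0.491). *IRF1*, a transcription factor of the interferon response, fell in both clones, by 0.37 and 0.52 on the log2 scale.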

How the data were processed

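RNA-seq of LNCaP cells was measured in 9 libraries, 3 each of del-4, del-56 and WT. The authors trimmed reads with Trim Galore 0.6.5, aligned them with STAR to GRCh38, counted them per gene with BEDTools 2.27.1 and GENCODE 38, and deposited counts divided by DESeq2 size factors, a normalized signal for 19984 protein-coding genes. Multiplied by the size factors, all values came out as whole reads (tolerance 1e-06). Of 21724 values of 1 to 20 reads, 83.8% were even. Sequencing was paired-end, so both mates of a fragment can each be counted, and low values can rest on fewer fragments than reads. The strand setting of the counting was not given in the sources used here.

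Log2(normalized count + 1) was fitted with limma 3.58.1 (trend, R 4.3.3) on the 6 libraries of each comparison, for genes with a mean of at least 1 in them, and p-values were adjusted by Benjamini-Hochberg over all genes tested. A gene was called at an adjusted p under 0.05, and fold changes are on this log2 scale, which understates changes of low genes. Coordinates were taken from GENCODE 44, which matched 19923 genes, and start regions from RefSeq.

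The members and lists were chosen with earlier results of these data known. Values in every library are given for the 6 catalytic subunits, for the 2 largest rises and falls of each role group among genes called in both clones, and for the 5 largest differences between the clones. Lists of other genes are given by counts and by genes called in both clones. Alternatives were other pseudocounts, filters and scalings, a joint fit of the 9 libraries, a block for replicate number, edgeR 4.0.16 and DESeq2 1.42.0 on the whole reads, and leaving out each library. The fits across all genes with limma, edgeR and DESeq2 were tested on simulated data. Values of some list genes are not reported here.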

Additional observations from a re-analysis of the deposited data

Results flagged for a closer look

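Beyond the comparisons with WT, 14 proteasome genes differed between del-4 and del-56 in the test of the difference itself (limma, adjusted p under 0.05). On the log2 scale, del-4 minus del-56, the values were 8.27 for *PSMD5*, 2.34 for *PSMB8*, 0.34 for *PSME1*, 0.22 for *PSMB10*, 0.21 for *PSMA8*, and 0.20 each for *PSMB9*, *PSMD8* and *PSME2*. Negative values were -0.21 for *PSMD7*, -0.14 for *PSMB1*, -0.13 for *PSMC1*, -0.12 for *PSMC6*, and -0.11 each for *PSMD11* and *PSMD13*. These differences rest on the del-4 and del-56 libraries only. With 1 library left out, 8 of the 14 lost the call in at least 1 fit: *PSMB1*, *PSMB9*, *PSMB10*, *PSMC1*, *PSMC6*, *PSMD11*, *PSMD13* and *PSME2*.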

How the results depend on the processing

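Each *EPCART*-del group and WT was 1 clone with 3 libraries, and changes near 1.1-fold, most of those in the family, depended on single libraries and on scaling. Leaving out 1 library gave 10 to 17 genes higher and 6 to 9 lower in del-4 (medians 0.0036 to 0.039), 6 to 19 higher and 8 to 12 lower in del-56 (medians 0.0047 to 0.029), and 5 to 7 higher and 1 to 8 lower between the clones (medians -0.014 to 0.032). With the same total, under which the median of all genes was -0.072 in del-4, -0.029 in del-56 and -0.043 between the clones, 7 genes were higher and 15 lower in del-4 (median -0.056), 6 higher in del-56 (median -0.014), and 11 lower between the clones (median -0.023). Quantile normalization gave a median of -0.015 between the clones. Among genes that overlap no other gene, an alternative chosen after seeing the data, 10 were higher and 5 lower in del-4, 5 lower in del-56 and 3 higher between the clones. The replicate block left 7 higher in del-56, but same-numbered libraries did not deviate together (correlations -0.031 to 0.024), so the numbers do not pair the samples. Signs of values that were not called reversed with the same total for *PSMB6* (-0.013) and *PSMB7* (-0.032) in del-4 and *PSMB5* (-0.014), *PSMB6* (-0.022), *PSMB7* (-0.0091) and *PSME1* (-0.014) in del-56. With 1 library left out, *PSMB9* in del-4 ranged from -0.052 to 0.0032, and in del-56 *PSMB6* from -0.025 to 0.031 and *PSMB5* from -0.0038 to 0.046. The cause was not tested. Among the values of single genes under the alternatives, 721 kept direction and call, 66 lost the call, 3 gained it and 10 reversed. The loss of *PSMD5* in del-56 was -8.33 to -7.82 with 1 library left out.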
